A study of Mus musculus with 12 samples.

Results

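The 31 genes described here encode enzymes and regulators of cholesterol and fatty acid synthesis, and were taken by symbol from a table of read counts with 55291 symbols. By role they are 7 enzymes of the early mevalonate steps (Acat2, Hmgcs1, Mvk, Pmvk, Mvd, Idi1 and Fdps), 11 enzymes on the way from farnesyl diphosphate to cholesterol (Fdft1, Sqle, Lss, Cyp51, Tm7sf2, Msmo1, Nsdhl, Hsd17b7, Ebp, Sc5d and Dhcr7), 5 genes that control or move sterols (Insig1, Srebf1, Srebf2, Scap and Stard4), 4 enzymes of fatty acid synthesis and elongation (Acly, Acaca, Fasn and Elovl6) and 4 desaturases (Scd1, Scd2, Fads1 and Fads2). Of the 31, 30 passed the filter on low counts, as did 17289 symbols in all. Fdps, the synthase of farnesyl diphosphate, had between 0 and 7 counts in each library and was not tested.

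The libraries came from MC3T3-E1, a clonal line of wild-type preosteoblasts from mouse skull bone, so each group rests on 1 clone. Bone differentiation was induced after the cells had reached confluence, a point called day 0, and cells were taken at days 0, 14 and 21 either as controls or from an arm given mouse interferon beta (IFN) at 50 mg/L from the start of differentiation. Each of the 6 groups (control and IFN at day 0, day 14 and day 21) had 2 libraries. The labels do not say whether the day 0 IFN cells had met IFN before they were taken, nor whether the 2 libraries of a group came from separate cultures, so p-values measure only the spread between these libraries.

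Library totals ran from 29772425 to 38908453 counts, and values are given as CPM, the counts of a gene relative to the scaled total of its library. Runx2, the master regulator of the osteoblast lineage, was at 71.9 to 126 CPM, and 8 osteoblast markers summed to 4690 to 16300 CPM. Bglap, which encodes osteocalcin, was low at 0.292 to 1.41 CPM in 11 libraries and 6.89 in control day 21 replicate 2, and Ibsp, bone sialoprotein, was at 0 in both day 0 controls. Between the arms 3 of the 8 were lower with IFN at day 14, namely Ibsp (log2 -3.56, edgeR adjusted p = 0.0202), Col1a1 (-2.27, adjusted p = 0.0207) and Dlx5 (-1.44, adjusted p = 0.0321), and Col1a1 at day 21 (-2.65, adjusted p = 0.0157). Of all genes, 2.29% passed between the arms at day 14 and 0.995% at day 21. The part of these osteoblast markers in the results for the synthesis genes was not tested. Markers of adipocytes, which also make fatty acids, were mostly low. In every library 7 of the 10 were under 1 CPM, Adipoq and Pparg among them. The 10 summed to 13.4 to 103 CPM, of which Fabp4 gave 0.846 to 53.7 and Cebpa 9.74 to 45.8. Fabp4 was lower with IFN at day 14 (1 of 4 markers tested, where 2.29% of all genes passed), and no marker passed at day 21. It rose from day 0 to day 14 in both arms and again to day 21 with IFN. The part of Fabp4 in the results for the synthesis genes was not tested. Of the macrophage markers, Tyrobp was at 0 in all 12 libraries, and the 6 summed to 11.2 to 27.9 CPM. Cd14 gave 5.44 to 20.05 CPM of this and Cd68 1.23 to 11.05, and none was called between the arms. Within the IFN arm Cd68 rose from day 0 to day 14, where 28.1% of all genes rose. Cd68 and Cd14 rose from day 14 to day 21, where 16.0% did. The interferon response marked the arms: Irf7 had 719.9 and 742 CPM in the IFN libraries of day 14, 504.5 and 545.5 in those of day 21, and 5.5 and 3.10 in those of day 0. The 6 control libraries had 2.70 to 13.7 CPM. Isg15, an interferon-induced ubiquitin-like protein, had 221 and 231 CPM with IFN on day 14 and 139 and 173 on day 21. It had 6.62 and 5.98 CPM in the IFN libraries of day 0, and 1.66 to 22.6 in the controls. In both genes the day 0 IFN libraries thus lay within the range of the controls. In many genes 2 control libraries stood apart, replicate 1 of day 0 and replicate 2 of day 21, and the main results that rest on them are given with and without them.

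Cholesterol is built from acetyl-CoA through mevalonate, farnesyl diphosphate, squalene and lanosterol. When sterols run low in the endoplasmic reticulum, SCAP carries the membrane-bound SREBP precursors to the Golgi, where proteases free the transcription factor, while INSIG1 holds SCAP back when sterols are plentiful. SREBP2, the product of Srebf2, acts mainly on sterol genes and SREBP1c, from Srebf1, mainly on fatty acid genes. Interferons are known to lower sterol synthesis in macrophages, in part through 25-hydroxycholesterol made by the product of Ch25h. In bulk RNA, fewer cells that express a gene and less RNA of that gene per cell cannot be told apart.

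SREBP proteins bind sterol regulatory elements near start sites, usually beside the factors NF-Y, which binds CCAAT boxes, and Sp1, which binds GC boxes. RefSeq promoter windows of 300 bases (250 before to 50 after the start, build GRCm38.p6) were at hand for 24 of the 31 genes, in 30 windows. The 6 windows below belong to Idi1, Nsdhl, Msmo1 and Cyp51, which stood out most at day 0 among the genes with a window, to Hmgcs1, and to Elovl6, which moved the other way. Capitals mark CCAAT or its reverse ATTGG and the sterol element TCACNCCAC.
Idi1 (chr13:8885356-8885655, plus strand): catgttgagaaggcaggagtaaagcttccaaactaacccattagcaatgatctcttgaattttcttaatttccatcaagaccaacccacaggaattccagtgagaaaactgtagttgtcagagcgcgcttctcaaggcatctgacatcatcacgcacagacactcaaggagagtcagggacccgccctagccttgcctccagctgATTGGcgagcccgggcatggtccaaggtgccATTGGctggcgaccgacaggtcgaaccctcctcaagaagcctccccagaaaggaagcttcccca
Nsdhl (chrX:72918271-72918570, plus strand): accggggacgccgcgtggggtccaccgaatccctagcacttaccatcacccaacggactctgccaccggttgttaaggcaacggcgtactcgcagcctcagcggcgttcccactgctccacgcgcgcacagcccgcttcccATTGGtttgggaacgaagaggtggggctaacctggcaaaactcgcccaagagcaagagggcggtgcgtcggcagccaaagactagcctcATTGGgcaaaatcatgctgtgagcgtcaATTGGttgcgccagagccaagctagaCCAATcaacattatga
Msmo1 (chr8:64733529-64733828, minus strand): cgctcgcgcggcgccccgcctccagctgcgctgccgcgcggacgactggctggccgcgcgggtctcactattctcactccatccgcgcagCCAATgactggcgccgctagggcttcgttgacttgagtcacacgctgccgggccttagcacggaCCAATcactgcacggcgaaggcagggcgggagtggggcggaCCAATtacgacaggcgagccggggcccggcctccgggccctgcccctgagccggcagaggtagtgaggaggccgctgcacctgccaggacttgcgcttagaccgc
Cyp51 (chr5:4104648-4104947, minus strand): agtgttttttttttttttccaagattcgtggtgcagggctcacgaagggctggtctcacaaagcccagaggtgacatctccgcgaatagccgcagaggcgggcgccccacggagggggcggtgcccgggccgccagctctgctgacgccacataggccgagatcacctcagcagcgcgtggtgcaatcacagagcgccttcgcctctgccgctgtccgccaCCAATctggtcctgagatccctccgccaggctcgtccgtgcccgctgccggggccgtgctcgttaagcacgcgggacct
Hmgcs1 (chr13:119690101-119690400, plus strand): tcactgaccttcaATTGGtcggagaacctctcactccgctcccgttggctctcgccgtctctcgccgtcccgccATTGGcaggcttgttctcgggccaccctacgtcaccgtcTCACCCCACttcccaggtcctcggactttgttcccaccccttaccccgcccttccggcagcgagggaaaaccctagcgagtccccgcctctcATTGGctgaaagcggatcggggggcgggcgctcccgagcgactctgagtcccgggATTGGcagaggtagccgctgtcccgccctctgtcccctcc
Elovl6 (chr3:129532136-129532435, plus strand): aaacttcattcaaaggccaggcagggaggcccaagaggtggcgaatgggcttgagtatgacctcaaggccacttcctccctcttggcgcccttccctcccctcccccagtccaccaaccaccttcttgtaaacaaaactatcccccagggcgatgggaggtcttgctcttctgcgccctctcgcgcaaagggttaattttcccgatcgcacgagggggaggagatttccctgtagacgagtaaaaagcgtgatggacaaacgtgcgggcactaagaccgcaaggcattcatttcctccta
The sterol element in the letters TCACNCCAC, searched on both strands, was in 1 of the 24 genes, Hmgcs1, starting 137 bases before its start site, and in 1.24% of all 32851 RefSeq windows of this length. CCAAT, on either strand, was in 20 of the 30 windows (19 genes), against 37.4% of all windows. GGGCGG, the core of the GC box, also searched on both strands, was in 23 of the 30 windows (20 genes), against 35.7% of all windows. Hmgcs1 and Nsdhl each held 4 CCAAT boxes, Msmo1 3, Idi1 2 and Cyp51 1, and the Elovl6 window held none of the 3 motifs. Of the other genes that moved the way of Elovl6, Ebp and Srebf1 held both CCAAT and GC boxes, and Acaca held neither. Fads2, which moved with Idi1, held a GC box and no CCAAT box. A link between motifs and direction was not tested. Matches of different motifs could overlap, and a match describes letters only, not a bound site.

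At day 0 the control replicates did not resemble each other in these genes. The first control library was above all 3 other day 0 libraries (the second control and both IFN libraries) for 25 of the 30 genes tested, against 38.2% of all genes, and 2-fold or more above all 3 for 10 of them, against 4.31% of all genes. The 3 other libraries lay close together, their highest value being 1.02 to 1.32 times their lowest across the 30 genes. On the log2 scale the first control library differed from the mean of the other 3 by a median of 0.71 over the 30 genes, and by -0.05 over all genes tested.

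The largest of these ratios were in sterol enzymes. Idi1, which isomerizes isopentenyl diphosphate, was at 19.4 CPM in control replicate 1, at 3.98 in control replicate 2 and at 4.50 and 4.65 in the IFN libraries. Nsdhl, a dehydrogenase of C4 demethylation, was at 44.7 CPM in control replicate 1, 11.1 in replicate 2 and 10.7 and 9.88 in the IFN libraries. Msmo1, the C4 methyl oxidase that precedes it, was at 80.2, 22.04, 19.3 and 23.7 CPM in the same order. In each of these genes 1 library was high and the other 3 were nearly level. Cyp51, lanosterol 14-alpha demethylase, was at 199.96 CPM against 60.1, 53.5 and 56.1. Relative to the mean of the other 3 libraries, the ratios were 4.43 for Idi1, 4.22 for Nsdhl, 3.70 for Msmo1 and 3.53 for Cyp51. The other genes past 2-fold were Fdft1 (squalene synthase, ratio 2.68), Mvd (mevalonate diphosphate decarboxylase, 2.57), Sqle (squalene epoxidase, 2.48), Stard4 (a cytosolic sterol carrier, 2.34), Fads2 (delta-6 desaturase, 2.27) and Srebf2 itself (2.24).

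The opposite was seen in 5 genes, against 41.2% of all genes that lay below the 3 others. Elovl6, which elongates palmitate, was at 54.9 CPM in control replicate 1 and at 200, 184 and 201 in control replicate 2 and the IFN libraries, a ratio of 0.282. It was the only 1 of the 30 genes that was 2-fold or more below all 3, where 10.4% of all genes were. Ebp, the sterol delta-8,7 isomerase, had a ratio of 0.697, Acaca (acetyl-CoA carboxylase) 0.829, Srebf1 0.858 and Scd2 0.879. By role, the median deviation from a gene's mean over 12 libraries in this library was 0.94 (log2) for the sterol steps, 0.80 for the mevalonate steps, 0.72 for the desaturases, 0.46 for the regulators and 0.06 for fatty acid synthesis. Control replicate 1 of day 0 had the highest value of all 12 libraries for 17 of the 30 genes, against 14.5% of all genes, and the lowest for 0, against 16.6%.

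**Figure D1:**
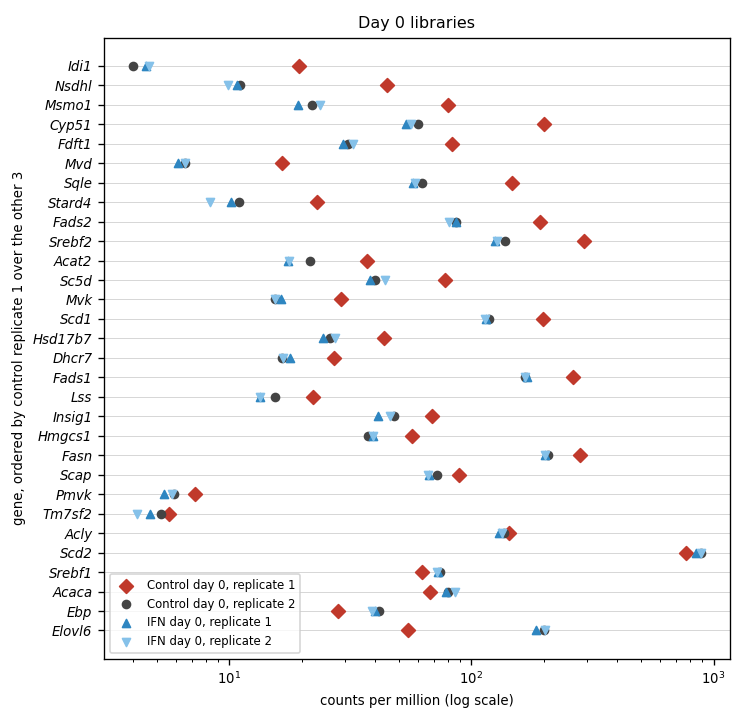
CPM (log axis) of the 30 tested genes in the 4 day 0 libraries, ordered by the ratio of control replicate 1 (red diamonds) to the mean of the other 3. Red diamonds lie to the right of the other symbols for 25 genes and to the left for 5, with Elovl6 farthest to the left.

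The uneven control replicates were not limited to day 0, whereas the IFN replicates were close. The median absolute log2 gap between replicates over the 30 genes was 0.74, 0.60 and 0.51 in the control groups of days 0, 14 and 21, and 0.08, 0.08 and 0.11 in the IFN groups. Over all genes tested the same gaps were 0.41, 0.34 and 0.62 in the controls and 0.12, 0.12 and 0.16 in the IFN groups. Replicate 1 was the higher library for 25, 20 and 22 of the 30 genes in the 3 control groups, against 47.4%, 49.2% and 51.3% of all genes. At day 0 it was 2-fold or more higher for 10 genes, against 7.0% of all genes, and replicate 2 for 1, Elovl6, against 11.2%.

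In the day 14 controls, 3 genes were 2-fold or more higher in replicate 1, against 9.13% of all genes, and 0 in replicate 2, against 6.93%. They were Scd2, a stearoyl-CoA desaturase (1517 and 613 CPM), Sqle (146 and 49.9) and Stard4 (20.997 and 9.70). Replicate 1 of this group also had a summed level of 7180 CPM over 10 hypoxia genes, against 1990 in replicate 2 and 1460 to 3480 in the other 10 libraries. Its part in the gap was not tested.

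In the day 21 controls, 6 genes were 2-fold or more higher in replicate 1 (Acat2, Mvk, Idi1, Nsdhl, Srebf2 and Stard4) and 3 in replicate 2 (Mvd, Ebp and Insig1), against 15.2% of all genes in each direction. Srebf2 was at 208 and 79.7 CPM, and Insig1, a target of SREBP that also restrains it, went the other way, with 39.1 and 94.9 CPM. Acat2, which makes acetoacetyl-CoA, was at 24.5 and 9.55 CPM, and Mvk, mevalonate kinase, at 21.4 and 10.3. Replicate 2 held the lowest value of the 12 libraries for 9 of the 30 genes, against 24.6% of all genes, and the highest for 3, against 22.9%. In that library 10 genes of endoplasmic reticulum stress summed to 32100 CPM, of which the chaperone Hspa5 gave 25680, against 1550 to 3210 in the other 11 libraries. Its part in these values was not tested.

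**Figure D2:**
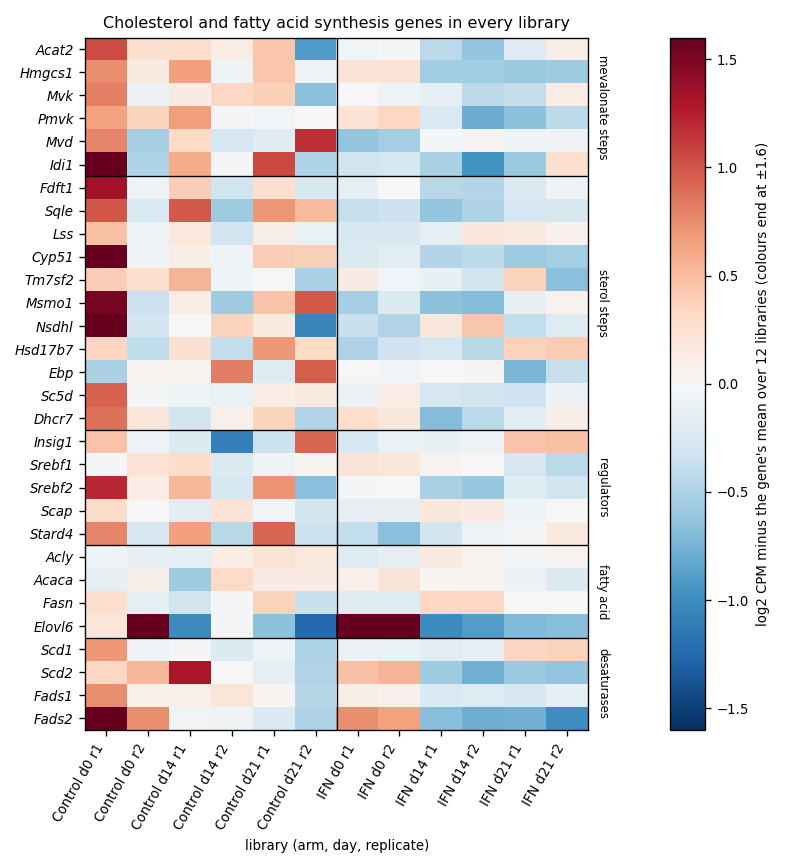
Log2 CPM of each of the 30 tested genes minus that gene's mean over the 12 libraries, grouped by role, with control libraries to the left of the vertical line. Control replicate 1 of day 0 is red in most sterol genes, paired control columns differ, and paired IFN columns look alike.

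With IFN against control at day 14, none of the 30 genes passed the test (edgeR quasi-likelihood test, Benjamini-Hochberg adjusted p below 0.05 over 17289 genes), where 2.29% of all genes did, and 4 had an unadjusted p below 0.05. The fitted differences leaned lower with IFN: the median log2 difference was -0.46 over the 30 genes and -0.01 over all genes, and 23 of the 30 were negative. Without control day 14 replicate 1 the median was -0.17, and 21 were negative. Both IFN libraries lay below both control libraries for 16 genes, against 27.1% of all genes, and above both for 2 (Insig1 and Fasn), against 28.6%. By role the median log2 difference was -0.79 for the mevalonate steps, -0.52 for the desaturases, -0.46 for the sterol steps, -0.03 for the regulators and 0.11 for fatty acid synthesis.

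Scd2 had the smallest p. Its CPM were 1517 and 613 in the day 14 controls and 413 and 359 with IFN, so the groups did not overlap, but the control libraries differed from each other by more than the lower one differed from IFN. The fitted log2 difference was -1.46 ± 0.34 (SE) with an adjusted p of 0.0547 (edgeR quasi-likelihood test). It was -0.67 (adjusted p = 0.321) without control day 14 replicate 1 and -1.97 (adjusted p = 0.00166) without replicate 2. It passed by DESeq2 (adjusted p = 8.52e-04), and in edgeR without control day 21 replicate 1 (adjusted p = 0.0368) or replicate 2 (adjusted p = 0.0387).

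Among the mevalonate steps, Hmgcs1, the cytosolic HMG-CoA synthase, was at 53.5 and 32.5 CPM in the day 14 controls and at 23.1 and 23.1 with IFN. The groups did not overlap, and the log2 difference was -0.90 ± 0.27 (SE), with an adjusted p of 0.151 (edgeR). Without control day 14 replicate 1 it was -0.49 (adjusted p = 0.733). Pmvk, phosphomevalonate kinase, was at 7.39 and 4.49 CPM in the controls and 3.90 and 2.63 with IFN, a difference of -0.86 ± 0.33 (SE) (edgeR adjusted p = 0.258). Without control day 14 replicate 1 that difference was -0.46. Idi1 had the most negative fitted value of this role, -1.04 ± 0.68 (SE), from 8.51 and 5.54 CPM in the controls and 3.92 and 2.89 with IFN. Acat2 (-0.72), Mvk (-0.51) and Mvd (-0.04) were also below 0 and did not pass.

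Among the sterol steps, Sqle showed how much 1 library could carry. It was at 146 and 49.9 CPM in the day 14 controls and at 47.7 and 52.6 with IFN, so the groups overlapped. The fitted difference was -0.97 ± 0.45 (SE) (edgeR adjusted p = 0.377), and without control day 14 replicate 1 it was 0.01. Cyp51 was at 67.0 and 60.5 CPM in the controls and 45.6 and 47.1 with IFN, a difference of -0.46 ± 0.39 (SE) (edgeR adjusted p = 0.680), with no overlap. Ebp was at 41.4 and 71.3 CPM against 39.9 and 40.6, a difference of -0.49 that was -0.04 without control day 14 replicate 2. The other sterol steps ran from -0.54 for Fdft1 to 0.13 for Nsdhl.

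The regulators did not share a direction at day 14. Srebf2 was at 183 and 104 CPM in the controls and 88.3 and 82.8 with IFN, without overlap, and its log2 difference was -0.74 ± 0.44 (SE) (edgeR adjusted p = 0.509). Insig1 was at 42.3 and 23.2 CPM in the controls and 45.8 and 47.0 with IFN, above both controls, with a difference of 0.50 ± 0.38 (SE) (edgeR adjusted p = 0.627). Scap differed by 0.11, Srebf1 by -0.03 and Stard4 by -0.39. Fasn, the fatty acid synthase, was at 186 and 229 CPM in the controls and 291 and 292 with IFN, a difference of 0.49 ± 0.24 (SE) (edgeR adjusted p = 0.396), while Acly (ATP citrate lyase, 0.11), Acaca (0.10) and Elovl6 (-0.51) overlapped with their controls. Of the other desaturases, Fads2 was at 49.9 and 49.7 CPM in the controls and 32.3 and 29.99 with IFN. This was the desaturase whose control replicates were closest at day 14, and its difference was -0.68 ± 0.30 (SE) (edgeR adjusted p = 0.341). Fads1, the delta-5 desaturase, differed by -0.36 and Scd1 by -0.05, a value that was 0.05 without control day 14 replicate 1.

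The number of genes that passed at day 14 moved with the fit. DESeq2 called 2 genes (Scd2 and Hmgcs1), where it called 5.77% of all genes, limma voom with library weights 3 (Hmgcs1 and Scd2 lower, Fasn higher), against 9.53%, a fit without the low-count filter 4 (Scd2, Sqle, Hmgcs1 and Srebf2), against 3.46%, and a fit of the 4 day 14 libraries 1 (Fads2), against 4.27%. When the 2 libraries that stand apart (control replicate 1 of day 0 and control replicate 2 of day 21, neither of them a day 14 library) were left out of the shared fit, 6 of the 30 genes passed, where 15.0% of all genes did. These were Fads2 (-0.69, adjusted p = 0.00206), Cyp51 (-0.47, adjusted p = 0.00743), Acat2 (-0.73, adjusted p = 0.00948), Fads1 (-0.37, adjusted p = 0.0135) and Hmgcs1 (-0.91, adjusted p = 0.0154), which were lower with IFN in that edgeR fit, and Fasn (0.48, adjusted p = 0.0101), which was higher. The fitted differences hardly moved, and their standard errors were smaller. That fit took the gaps of 2 uneven control pairs out of the shared spread, so these calls cannot decide whether the genes differed.

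At day 21 again none of the 30 genes passed, where 0.995% of all genes did, and 4 had an unadjusted p below 0.05. DESeq2 and voom also called 0 of them, where they called 3.67% and 0.711% of all genes. The median log2 difference was -0.24 over the 30 genes and -0.01 over all genes, and it was 0.11 without control day 21 replicate 1. Both IFN libraries lay below both controls for 12 genes, against 18.5% of all genes, and above both for 1, Scd1, against 20.7%. The median by role was -0.56 for the mevalonate steps, -0.34 for the regulators, -0.17 for the sterol steps, -0.16 for the desaturases and -0.12 for fatty acid synthesis.

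Hmgcs1 had the smallest adjusted p at day 21. It was at 46.0 and 32.5 CPM in the controls and at 22.5 and 22.9 with IFN, without overlap, a log2 difference of -0.79 ± 0.27 (SE) (edgeR adjusted p = 0.262) that was -0.50 without control day 21 replicate 1. Cyp51 was at 82.8 and 82.2 CPM in the controls and 42.4 and 43.2 with IFN. Its replicates were close in both arms, and the fitted difference of -0.94 ± 0.40 (SE) had an edgeR adjusted p of 0.340. The spread was fitted over all 6 groups, and its day 0 controls were at 199.96 and 60.1. Without control day 0 replicate 1, or without replicate 2 of that group, the difference was -0.94, and without both libraries that stand apart -0.96. The SE fell to 0.13 whichever day 0 control was left out, because a group of 1 library adds no spread. These fits therefore cannot decide whether Cyp51 differed at day 21. Sqle was at 121 and 105 CPM in the controls and 60.8 and 62.2 with IFN, a difference of -0.88 ± 0.45 (SE) (edgeR adjusted p = 0.441). Ebp was at 34.8 and 78.6 CPM against 24.2 and 31.2, and its difference of -1.03 ± 0.37 (SE) (edgeR adjusted p = 0.268) was -0.34 without control day 21 replicate 2. Without replicate 1 of that group it was -1.49 (edgeR adjusted p = 0.00671), in a fit that called 20.5% of all genes and 2 of the 30. Pmvk, at 4.46 and 4.59 CPM in the controls and 2.90 and 3.40 with IFN, differed by -0.52 ± 0.33 (SE).

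Scd1, another stearoyl-CoA desaturase, was the gene that lay above both controls at day 21. It was at 117 and 87.4 CPM in the controls and 156 and 158 with IFN, a log2 difference of 0.62 ± 0.23 (SE) (edgeR adjusted p = 0.286), which was 0.86 (adjusted p = 0.0367) without control day 21 replicate 1, the other call of the fit in which 20.5% of all genes passed. Scd2 lay below both controls, at 552 and 439 CPM in the controls and 404 and 393 with IFN, a difference of -0.31 ± 0.33 (SE). Fads2 was at 44.3 and 36.7 CPM against 30.2 and 26.0, a difference of -0.53 ± 0.30 (SE) (edgeR adjusted p = 0.479). Without both libraries that stand apart, 3 genes passed at day 21, where 4.73% of all genes did: Cyp51, Fads2 (-0.67, adjusted p = 0.0164) and Hmgcs1 (-1.03, adjusted p = 0.0428). Without the low-count filter the 3 genes Ebp, Cyp51 and Sqle passed, where 3.06% of all genes did.

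**Figure D3:**
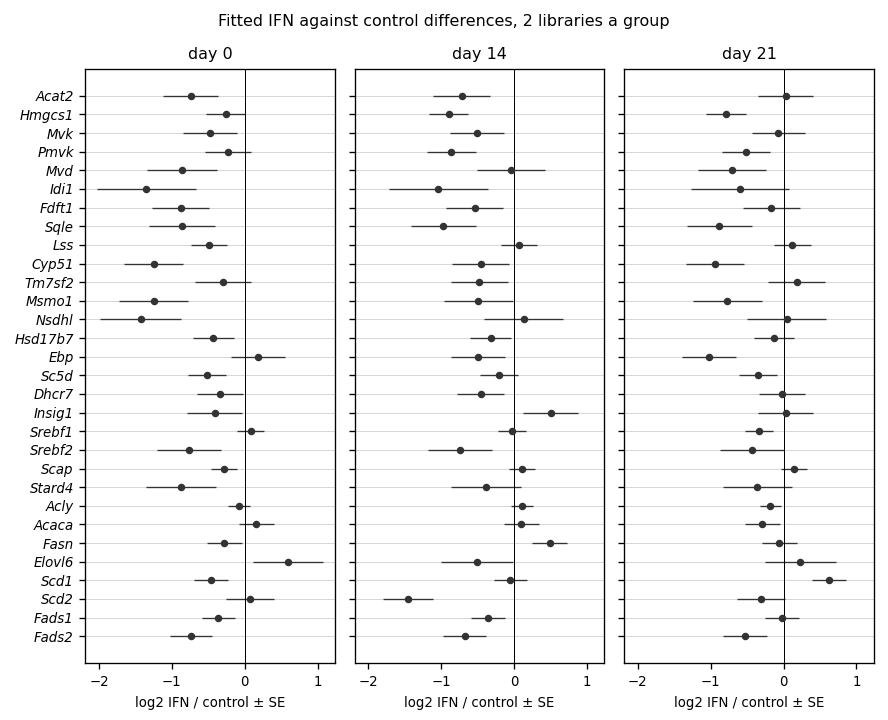
Fitted log2 difference of IFN against control (points, bars ± SE, 2 libraries a group) for the 30 tested genes at days 0, 14 and 21. No gene passed the test at any day, and points left of the 0 line are lower in the IFN libraries.

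At day 0 the comparison turned on the first control library. None of the 30 genes passed, where 0.00578% of all genes did (1 gene), and 5 had an unadjusted p below 0.05. DESeq2 and voom also called 0, where they called 0.00578% and 0% of all genes. Both IFN libraries lay below both controls for 16 genes, against 18.7% of all genes, and above both for 0, against 17.5%. The median log2 difference was -0.45, but without control day 0 replicate 1 it was -0.04. It was -0.74 without replicate 2 of that group, where Cyp51 differed by -1.87 and Fads2 by -1.20. Without the low-count filter Cyp51, Msmo1 and Nsdhl passed, where 0.259% of all genes did. In the plot of day 0 libraries the second control library lies among or beside the IFN libraries.

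The change in the IFN effect here means the change in the difference between the arms, as exposure at day 0 is not known. None of the 30 genes passed its test from day 0 to day 14, where 0.596% of all genes did. The same held from day 14 to day 21, where 0 genes passed. The number with an unadjusted p below 0.05 was 2 for the first change and 1 for the second, and DESeq2 and voom called 0 in both. Of all genes they called 2.75% and 3.35% for the first change, and 0.179% and 0% for the second. The median change was 0.08 and 0.10 on the log2 scale, and that of the first change was -0.37 without control day 0 replicate 1 and 0.45 without replicate 2. For the second change it was -0.10 when control day 14 replicate 1 was left out and 0.39 when control day 21 replicate 1 was. Without the low-count filter 3 genes passed for the first change (Scd2, Nsdhl and Elovl6), against 2.44% of all genes, and 1 for the second (Scd2), against 1.14%. Without both libraries that stand apart 1 gene, Fasn, passed for the second change, against 0.523%. Both tests share the day 14 libraries.

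**Figure D4:**
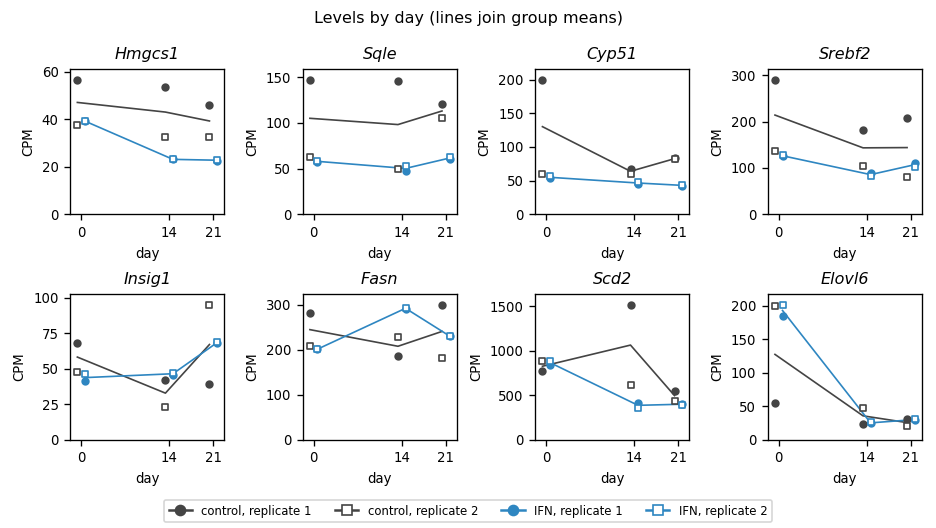
CPM by day for 8 genes in the control arm (dark) and the IFN arm (blue), with filled and open symbols for replicates 1 and 2 and lines joining group means. The 2 blue symbols of a day nearly coincide, whereas the dark symbols of Sqle and Scd2 at day 14 and of Cyp51 and Srebf2 at day 0 lie far apart.

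Within the IFN arm, whose replicates were close, 20 of the 30 genes changed from day 0 to day 14 in a fit of its 6 libraries alone, 14 lower and 6 higher. In that fit 53.6% of all 16259 genes changed, 25.5% lower and 28.1% higher. The median log2 change was -0.22 over the 30 genes and 0.02 over all genes. Both day 14 libraries lay below both day 0 libraries for 20 genes, against 36.5% of all genes, and above both for 8, against 37.9%. By role, 3 of 6 tested mevalonate genes fell and 1 rose, 6 of 11 sterol genes fell and 1 rose, 3 of 4 desaturases fell, 1 of 4 fatty acid genes fell and 2 rose, and 1 of 5 regulators fell and 2 rose.

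The largest fall was in Elovl6, from 184 and 201 CPM at day 0 to 24.0 and 25.9 at day 14, a log2 change of -2.94 ± 0.07 (SE) (edgeR adjusted p = 1.28e-25). Fads2 went from 86.4 and 80.9 to 32.3 and 29.99 CPM (-1.41 ± 0.08, edgeR adjusted p = 2.33e-15), and Scd2 from 846 and 889 to 413 and 359 (-1.16 ± 0.05, edgeR adjusted p = 4.6e-16). These 3 act on the length and the double bonds of fatty acids, and in each both day 14 libraries lay below both day 0 libraries. Dhcr7, 7-dehydrocholesterol reductase, fell by 0.78 on the log2 scale, Hmgcs1 and Pmvk by 0.75 each, Srebf2 by 0.55 and Acat2 by 0.47. Smaller falls were seen in Fdft1 (-0.37), Fads1 (-0.30), Sc5d, the lathosterol oxidase (-0.30), Msmo1 (-0.28), Cyp51 (-0.23) and Sqle (-0.20). The genes that rose were Nsdhl (0.75), Mvd (0.61), Fasn (0.55), Stard4 (0.35), Scap (0.29) and Acly (0.28). Fasn went from 202 and 201 CPM to 291 and 292, so the synthase and the elongase of palmitate moved in opposite directions.

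Some of these calls rested on single libraries. Leaving out IFN day 0 replicate 2, the edgeR test no longer called Sc5d (-0.20), Pmvk (-0.71), Cyp51 (-0.21), Sqle (-0.19), Msmo1 (-0.14) and Stard4 (0.21). Without IFN day 14 replicate 1 it lost Cyp51 (-0.20), Sqle (-0.12) and Msmo1 (-0.30), and without IFN day 14 replicate 2 it lost Acat2 (-0.37), Sc5d (-0.28), Pmvk (-0.50), Msmo1 (-0.27) and Stard4 (0.25). With all 12 libraries in 1 fit, whose spread includes the uneven controls, 2 of the 30 genes passed, where 10.7% of all genes did: Elovl6 (-2.95 ± 0.52, adjusted p = 0.00583) and Fads2 (-1.43 ± 0.30, adjusted p = 0.0134). DESeq2 called 18 of the 30, where it called 50.1% of all genes, without Stard4 (adjusted p = 0.0973) and Msmo1 (adjusted p = 0.0525). Stard4 also missed the threshold in edgeR with RLE scaling (adjusted p = 0.0564) and without the low-count filter (adjusted p = 0.0565).

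From day 14 to day 21 in the IFN arm, 16 of the 30 genes changed, 10 higher and 6 lower, where 29.5% of all genes did, 16.0% higher and 13.5% lower. The median log2 change was 0.09. Both day 21 libraries lay below both day 14 libraries for 10 genes, against 29.6% of all genes, and above both for 11, against 30.5%. Hsd17b7, a 3-ketosteroid reductase of sterol synthesis, rose from 28.3 and 25.3 to 44.4 and 45.5 CPM, by 0.74 ± 0.09 (SE) on the log2 scale (edgeR adjusted p = 1.62e-07). Msmo1 rose by 0.64, Insig1 by 0.55 (45.8 and 47.0 to 68.0 and 68.7 CPM), Dhcr7 by 0.53, Scd1 by 0.52 (108 and 110 to 156 and 158 CPM), Acat2 by 0.46, Srebf2 by 0.32, Fdft1 by 0.31, Sqle by 0.29 and Elovl6 by 0.25. The genes that fell were Nsdhl (-0.61), Ebp (-0.54), Srebf1 (-0.38), Fasn (-0.35), Acaca (-0.20) and Scap (-0.19). Hmgcs1, at 22.5 and 22.9 CPM at day 21, differed by -0.03 and did not pass. This comparison shares the day 14 libraries with the one before it, so a high or low day 14 value enters both with opposite sign.

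Without IFN day 14 replicate 1, 10 genes passed in this second interval, where 19.0% of all genes did, and the calls of Sqle (0.21), Dhcr7 (0.40), Elovl6 (0.19), Fdft1 (0.32), Acaca (-0.21) and Scap (-0.16) were lost. Without IFN day 14 replicate 2 the test lost Nsdhl (-0.49), Acat2 (0.36), Fdft1 (0.30), Acaca (-0.19) and Scap (-0.21). Without IFN day 21 replicate 2 it lost Dhcr7 (0.39), Acat2 (0.31), Fdft1 (0.23) and Acaca (-0.14), and without IFN day 21 replicate 1 it lost Scap (-0.16). With all 12 libraries in 1 fit none of the 30 genes passed, nor did any other gene. Acaca was not called by DESeq2 (-0.19, adjusted p = 0.0532), nor Elovl6 by voom (0.26, adjusted p = 0.0510). The summed level of 10 endoplasmic reticulum stress genes in this arm was 1680 and 1730 CPM on day 0, then 3210 and 3190 on day 14 and was 2240 and 2260 on day 21, and that of 10 hypoxia genes 1770 and 1790, 2030 and 1900, and 2710 in both libraries of day 21. Their part in these changes was not tested.

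**Figure D5:**
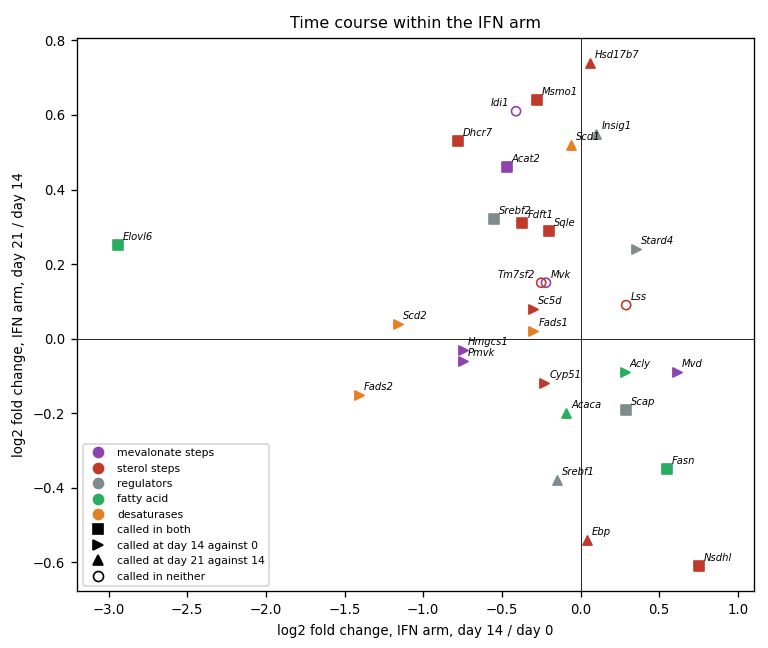
Log2 change from day 0 to day 14 (horizontal) and from day 14 to day 21 (vertical) in the IFN arm for the 30 tested genes, coloured by role, with shapes for the calls of the 6-library fit. Elovl6 lies at -2.94 on the horizontal axis, and Hsd17b7 is the highest point at 0.74.

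In the control arm none of the 30 genes passed from day 0 to day 14, where 0.211% of all genes did, and none from day 14 to day 21, where 0 genes did. The number with an unadjusted p below 0.05 was 2 and 1. Both day 14 libraries lay below both day 0 libraries for 5 genes (Sc5d, Dhcr7, Insig1, Elovl6 and Fads2), against 21.1% of all genes, and above them for 0, against 21.4%. Fads2 went from 192 and 86.6 CPM to 49.9 and 49.7, a difference of -1.49 ± 0.38 (SE) (edgeR adjusted p = 0.278), and it alone of the 30 passed in the fit of all 12 libraries (-1.49 ± 0.30, edgeR adjusted p = 0.0312, where 2.38% of all genes passed) and by DESeq2 (adjusted p = 0.0311, 2.34% of all genes). Elovl6 went from 54.9 and 200 CPM to 23.9 and 47.1, a difference of -1.84 ± 0.59 (SE) (edgeR adjusted p = 0.423). Without control day 0 replicate 1 the differences were -0.79 for Fads2 and -2.49 for Elovl6, and without replicate 2 of that group -1.96 and -0.64. Over the 30 genes the median difference was -0.26 with 27 below 0, but 0.06 with 10 below 0 without control day 0 replicate 1, and -0.61 without replicate 2. Both genes passed without the low-count filter, where 1.74% of all genes did. From day 14 to day 21, Scd2, Fads1 and Fads2 were lower in both libraries, against 19.7% of all genes, and Cyp51, Msmo1, Hsd17b7, Sc5d and Acly were higher in both, against 17.8%.

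Levels can be compared between genes only per length. Over the exons in GENCODE M21, Scd2 had the highest median, 107 CPM per kilobase of exon, followed by Fads1 at 34.1, Acly at 28.5, and Scd1 at 23.7. The lowest tested genes were Dhcr7 at 2.69, Pmvk at 2.65, Stard4 at 2.11, Lss (lanosterol synthase) at 1.49, Idi1 at 1.31 and Tm7sf2 (a sterol reductase) at 0.955. Fdps, at 0.0150, is needed between Idi1 and Fdft1, both of which were counted in every library. Its annotated exons share 26.7% of their bases with Gm43738 on the same strand, and how shared reads were counted is not given, so its level is uncertain. Of the 31 genes, 11 share exon bases with another annotated gene, among them Fdft1 with Ctsb (18.3% of bases, opposite strand), Hmgcs1 with Gm48342 (12.1%, opposite strand) and Tm7sf2 with Vps51 (12.1%, same strand), and these values are less certain.

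Other genes of sterol and fatty acid metabolism, from lists chosen by function, gave no call between the arms at day 14. At day 14 with IFN against control, 0 of 6 other sterol synthesis enzymes, 0 of 14 genes of sterol uptake and SREBP control, 0 of 7 tested genes of sterol efflux and oxysterols and 0 of 20 other fatty acid and lipid synthesis genes passed, where 2.29% of all genes did. From day 0 to day 14 in the IFN arm, the counts higher and lower were 3 and 1 for sterol enzymes, 5 and 4 for uptake and control, 3 and 3 for efflux and oxysterols and 5 and 9 for fatty acid and lipid genes, against 28.1% of all genes higher and 25.5% lower. From day 14 to day 21 they were 4 and 1, 3 and 1, 1 and 2, and 9 and 4, against 16.0% and 13.5%.

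By name, Por, the electron donor of Cyp51 and Sqle, rose by 0.67 and then by 0.69 in the IFN arm, and Aacs, acetoacetyl-CoA synthetase, rose by 0.50 and then fell by 0.39 (log2). Npc2, which moves cholesterol out of lysosomes, rose by 1.24 to 748 and 755 CPM at day 14 and by a further 0.13 to day 21, and its difference from control was 0.74 at day 14 (edgeR adjusted p = 0.0787) and 0.82 at day 21 (edgeR adjusted p = 0.0935). Acsl4, which activates arachidonic acid, rose by 1.48 and then 0.77, from 95.2 and 90.8 CPM at day 0 to 431 and 447 at day 21. Acsl5 rose by 0.83, Gpam, the first enzyme of glycerolipid synthesis, fell by 1.36, and both belong to the first interval. In the second interval Acsl3 rose by 0.62 and Fads3 fell by 0.46.

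Ch25h, the cholesterol 25-hydroxylase, was lower at later days in both arms. It was at 9.11 and 14.01 CPM in the day 0 controls, 1.22 and 2.80 at day 14 and 3.65 and 3.74 at day 21, and with IFN at 12.03 and 12.8, 1.88 and 2.92, and 2.48 and 2.16. The difference of day 14 from day 0 was -2.37 ± 0.22 (SE) in the IFN arm (edgeR adjusted p = 9.62e-11) and -2.52 ± 0.53 (SE) in the controls (edgeR adjusted p = 0.155). With IFN against control it differed by 0.25 ± 0.41 (SE) at day 14 and by -0.67 ± 0.40 (SE) at day 21 (edgeR adjusted p = 0.850 and 0.512). Irf7 passed in both of these comparisons (log2 7.21 and 5.43, edgeR adjusted p = 4.48e-05 and 2.02e-04), and Ch25h in neither.

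Abca1, the cholesterol exporter driven by LXR receptors, separated the control replicates. It was at 13.7, 12.6 and 14.4 CPM in control replicate 1 of days 0, 14 and 21, at 50.1, 79.1 and 32.1 in control replicate 2, and at 48.2 to 76.2 in the 6 IFN libraries. Replicate 1 was thus low in Abca1 in the same libraries in which it was higher for 25, 20 and 22 of the 30 synthesis genes. Ch25h was lower in replicate 1 at day 0 (9.11 and 14.01 CPM) and day 14 (1.22 and 2.80), and nearly level at day 21 (3.65 and 3.74). Other genes of the efflux list did not split as Abca1 did. Lpcat3 was at 26.35, 16.0 and 21.1 CPM in control replicate 1 and 25.6, 20.1 and 17.5 in replicate 2. Soat1 was at 183, 364 and 230 CPM in replicate 1 and 131, 188 and 343 in replicate 2. A link between Abca1 and the synthesis genes was not tested. With IFN against control Abca1 differed by 0.66 ± 0.73 (SE) at day 14 and 1.46 ± 0.75 (SE) at day 21 (edgeR adjusted p = 0.762 and 0.438). In the IFN arm it rose by 0.52 to day 14 and then fell by 0.19, Soat1, which stores cholesterol as esters, rose by 0.66 and then 0.18, and Cyp7b1, an oxysterol hydroxylase, fell by 1.03 and then by 0.88.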

How the data were processed

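RNA was sequenced from 12 libraries in 6 groups. HISAT2, SAMtools, featureCounts and the build mm10 are named in the submitters' processing notes. The deposited table holds the authors' raw counts per gene symbol. Versions, annotation and use of strand are not given in the sources used here. No 2 replicates agreed within sampling noise.

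The tests used edgeR 4.0.16 under R 4.3.3 (filterByExpr, TMM scaling, robust quasi-likelihood tests, Benjamini-Hochberg adjustment over all genes tested, threshold 0.05). IFN was compared with control in 1 fit of 12 libraries (17289 genes, 6 residual degrees of freedom). Days were compared within each arm in fits of its 6 libraries (16103 genes in the control arm, 16259 in the IFN arm, 3 residual degrees of freedom each), with a coefficient of biological variation of 0.38 and 0.0635. CPM use TMM-scaled totals, which ran from 0.809 (control day 21 replicate 2) to 1.04 as factors. The code was tested on simulated data.

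Members, lists and tests were chosen with earlier results of these data known. Values per library are given for the 8 members with the smallest unadjusted p at days 14 and 21 and for at least 1 member of each role. From the other lists up to 3 called genes with the smallest adjusted p are named. Results of some genes that this rule takes are not reported here. Alternatives were RLE scaling, DESeq2 1.42.0, no low-count filter, limma 3.58.1 voom with library weights, other sets of libraries, a replicate block and leaving out each library. Symbols were matched to GENCODE M21 for exon lengths (53292 of 55291). A value of 0 counts allows up to 3 counts' worth of RNA at this depth, counting error only.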

Additional observations from a re-analysis of the deposited data

How the results depend on the processing

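Counts of the 30 tested genes that passed the test moved with the estimate of the spread between libraries, which 2 libraries a group fix poorly. For IFN against control, 0 genes passed at each day. Without the low-count filter the number was 3 at day 0, 4 at day 14 and 3 at day 21, and 3 and 1 for the changes of the IFN effect. At day 14 it was 2 with DESeq2, 3 with voom and library weights, 1 with only the groups compared (Fads2) and 6 without both libraries that stand apart, a setting that gave 3 at day 21 and 1 (Fasn) for the change from day 14 to day 21. Leaving out each library in turn gave 0 to 2 genes at day 0, 0 to 1 at day 14, 0 to 2 at day 21, 0 to 2 for the first change and 0 to 1 for the second, in fits that called 0 to 0.265%, 0.604 to 6.46%, 0.319 to 20.5%, 0.0849 to 2.61% and 0 to 13.7% of all genes. In the control arm, day 14 against day 0, 1 gene passed with DESeq2, 2 without the filter and 1 in the fit of all 12 libraries, and 0 in each fit without 1 library. In the IFN arm, where 20 and 16 genes passed, DESeq2 gave 18 and 15, voom 21 and 15, all 12 libraries in 1 fit 2 and 0, and leaving out 1 library 14 to 22 and 10 to 18, where 42.2 to 53.5% and 17.5 to 28.0% of all genes passed. Of all genes in the same intervals of the IFN arm, the 6-library fit called 53.6% and 29.5%, and DESeq2 50.1% and 25.9%. Voom called 57.4% and 28.6% of all genes there, and the fit of all 12 libraries 10.7% and 0%. Over the fits without 1 library, the day 14 difference of Scd1 ran from -0.14 to 0.05 and that of Sqle from -1.54 to 0.01. Neither passed in the fit of all 12 libraries, and both changed sign without control day 14 replicate 1. The cause of the other moves was not tested.

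The deviations of replicate 1 correlated at 0.0801 to 0.11 between the control groups, where replicate 1 was also higher for 25, 20 and 22 of the 30 genes, and at -0.0511 to 0.0206 for all other pairs of groups. Since not every pair exceeded 0.1, the numbers were not taken as pairing. With a replicate block the calls were 0 for each comparison of IFN with control and in the control arm, and 20 and 16 in the IFN arm, as without it. In the IFN arm that fit called 54.0% and 30.5% of all genes. In the 12-library fit the block was 1 term shared by both arms. The median log2 gap, replicate 1 minus 2, was 0.72, 0.34 and 0.36 in the controls and -0.02, 0.01 and -0.03 with the IFN arm. A shared term cannot fully take out a gap of 1 arm, so its 0 calls cannot decide what the gap hides. Over all genes the block gave 90 higher and 18 lower in the control arm from day 0 to day 14, against 33 and 1 without it. Leaving out both libraries that stand apart does not touch the IFN arm and was not run there.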
